A study of Mus musculus with 6 samples.

Results

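The integrated stress response was read through 10 genes in mouse pancreatic islets kept with or without the furan fatty acid metabolite CMPF. The genes are Atf4, Atf3, Ddit3, Trib3, Asns, Chac1, Sesn2, Ppp1r15a, Eif2ak3 and Fgf21, taken by gene symbol from the annotation of the array. All 10 were measured, among 18193 genes in all. They are read by 18 probe sets, and a gene's main value comes from its brightest probe set, by the mean of the 6 arrays. CMPF carries carboxy, methyl and propyl groups on a furan ring with a propanoic acid chain, and circulates in blood. Both groups hold 3 arrays of islets from male CD1 mice aged 8 weeks that had rested overnight in RPMI medium. Both groups had 0.1% ethanol for 24 hours, and the CMPF group had 200 uM CMPF with it. The arrays of each group are numbered 1 to 3, and a numbered pair below is the CMPF array and the vehicle array of 1 number. The labels do not say what a number stands for, nor whether islets of several mice were pooled. A p-value here therefore rests on the spread among numbered samples, and that spread could be technical only.

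When a cell is short of amino acids, misfolds protein in its endoplasmic reticulum (ER) or is otherwise stressed, kinases phosphorylate the translation factor eIF2. General protein synthesis then drops, while the mRNA of the transcription factor ATF4 is translated better. ATF4 and its partner CHOP, the product of Ddit3, switch on genes for amino acid supply, redox balance and, if stress lasts, cell death. Beta cells make large amounts of proinsulin, and loss of the ER kinase PERK, the product of Eif2ak3, causes diabetes in mice and in people. An mRNA array reads neither eIF2 phosphorylation nor the translation of Atf4.

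ATF4 and its C/EBP partners bind composite C/EBP-ATF elements, so the promoter windows of the 10 genes were searched for that motif. RefSeq windows (GRCm38.p6) run from 250 bases before a transcript start to 50 bases after it, and all 10 genes matched 1 window each. The letters TGATGNAA, on either strand, stood in the windows of 5 of the 10 genes and in 3.97% of the 32851 windows of all genes. The genes were Atf3, Trib3, Asns, Chac1 and Fgf21. The 5 matches are shown because they let a reader set a shared sequence feature beside the values of the genes. Each is written 5′ to 3′ on the strand that carries the motif, with the motif in capitals.
Chac1: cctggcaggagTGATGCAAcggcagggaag
Asns: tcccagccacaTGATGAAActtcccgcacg
Trib3: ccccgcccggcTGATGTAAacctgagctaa
Atf3: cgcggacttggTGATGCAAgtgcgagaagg
Fgf21: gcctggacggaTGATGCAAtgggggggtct

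These 30-base stretches lie at chr2:119351038-119351067 on the minus strand for Chac1, and at chr6:7693214-7693243 on the minus strand for Asns. Those of Trib3, Atf3 and Fgf21 lie on the plus strand, at chr2:152344028-152344057, chr1:191183425-191183454 and chr7:45615611-45615640. Counted from the transcript start, the first base of the motif is at -193 in Chac1, -23 in Asns, -110 in Atf3 and -139 in Fgf21. In Trib3 the motif lies after the start, at 15. Only in Asns does the motif run in the direction of the gene. The 250 bases before the start of Chac1 and of Fgf21 are given on the strand of the gene, because both hold the same TGATGCAA letters. In the main probe sets pair 2 was lowest for Chac1 and highest for Fgf21. Fgf21 was dim, and the numbered pairs did not pass for it (limma F test, adjusted p = 0.108). The capitals mark the motif, which reads in reverse complement here.
Chac1: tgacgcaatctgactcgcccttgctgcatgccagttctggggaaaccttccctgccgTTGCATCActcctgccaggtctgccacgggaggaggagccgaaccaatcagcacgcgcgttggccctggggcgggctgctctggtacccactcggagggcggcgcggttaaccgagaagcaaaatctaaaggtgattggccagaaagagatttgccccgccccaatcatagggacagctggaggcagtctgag
Fgf21: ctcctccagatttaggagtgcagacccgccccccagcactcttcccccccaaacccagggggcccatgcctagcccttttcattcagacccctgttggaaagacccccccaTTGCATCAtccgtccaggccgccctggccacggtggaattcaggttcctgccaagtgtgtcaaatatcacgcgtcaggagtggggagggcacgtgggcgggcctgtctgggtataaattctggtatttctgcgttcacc

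The Chac1 stretch is chr2:119350992-119351241 on the plus strand and the Fgf21 stretch is chr7:45615491-45615740 on the minus strand. The cyclic AMP element TGACGTCA, a palindrome, stood in the window of Ppp1r15a alone, 1 of 10 members, and in 1.79% of all windows.
Ppp1r15a: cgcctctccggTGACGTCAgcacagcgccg

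That site is chr7:45526262-45526291 on the minus strand, with the motif starting at -12. The ER stress element, CCAAT and CCACG with 9 bases between them, stood in 0 of the 10 windows and in 0.12% of all windows. A match is a description of the letters in these windows and shows no binding.

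With CMPF the 10 genes read close to their vehicle levels. The differences, CMPF minus vehicle on the log2 scale, ran from -0.0051 for Atf4 to 0.12 for Sesn2. Limma, fitted to all genes, called 0 of the 10 at an adjusted p under 0.05, and 0% of all genes passed. The adjusted p was 0.99995 for each of the 10, and the smallest unadjusted limma p was 0.550, for Trib3. None of the 10 had an unadjusted p under 0.05, which 1.13% of all genes did. The CMPF and vehicle arrays overlapped for each of the 10, while they did not overlap for 4.52% of all genes. The difference was positive for 8 of 10 members and for 50.7% of all genes, and the median was 0.07 over the 10 and 0.0018 over all genes. Leaving out 1 array or 1 pair turned the sign of each of the 10 at least once, so the 8 positive signs are given as a count only. Leaving out 1 array leaves the other array of its number unmatched, so differences between the numbered pairs also enter that value. With whole pairs left out, Atf3, Ddit3, Trib3, Asns and Fgf21 kept their sign each time, and the other members did not.

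The numbers were taken to pair the arrays, from the data. Pair means ranged over more log2 units than the CMPF difference for all 10 genes, and for 87.5% of all genes. With the replicate number entered as a block, limma also called 0 of the 10, and 0% of all genes. With the block 0 of the 10 had an unadjusted p under 0.05, against 3.8% of all genes. Its 95% intervals for the 10 differences lay between -0.24 and 0.40, which is 0.849-fold to 1.32-fold on the linear scale of RMA signal. Without the block they lay between -0.78 and 0.95, or 0.582-fold to 1.93-fold. Each interval is for 1 gene and is not widened for looking at 10.

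**Figure D1:**
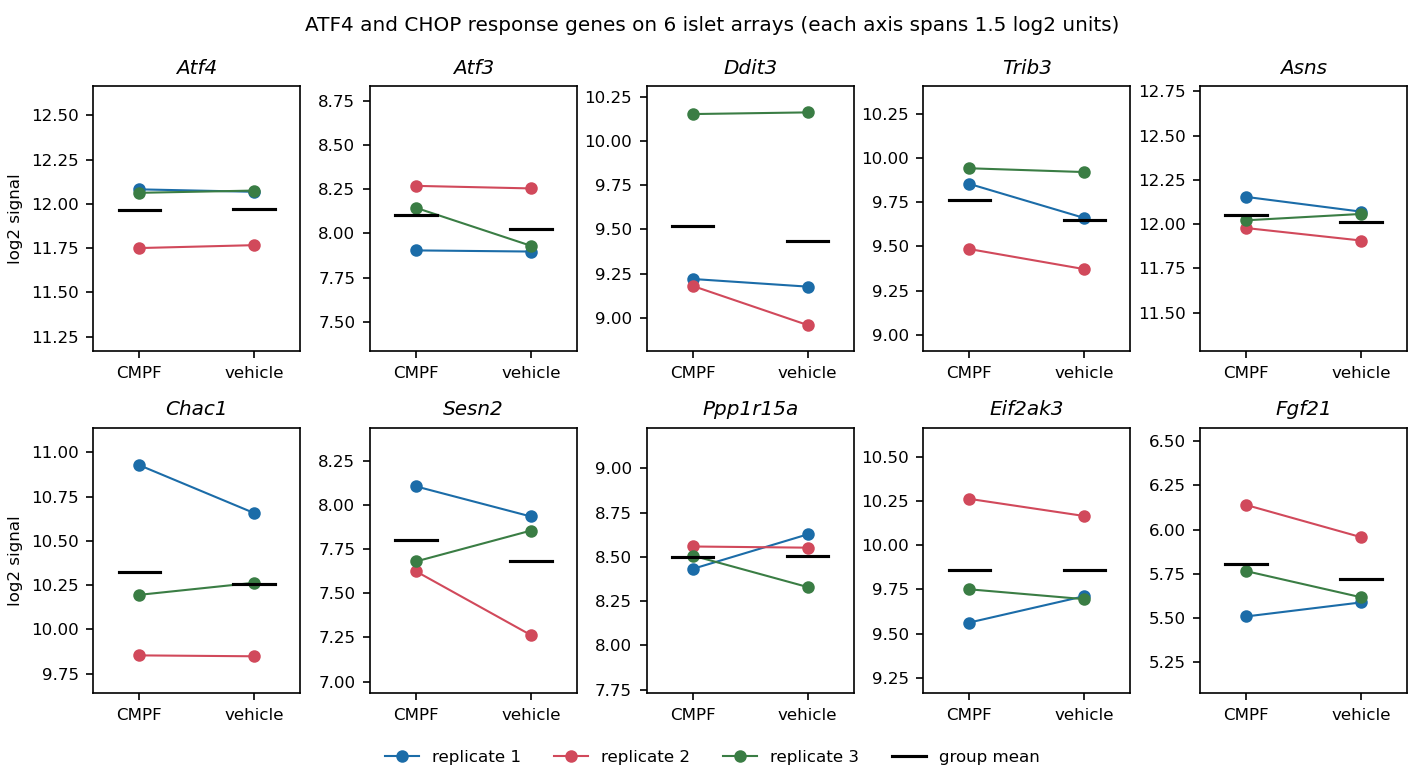
Log2 signal of the main probe set of each of the 10 genes on the 3 CMPF arrays (left) and the 3 vehicle arrays (right), with lines joining the arrays of 1 replicate number, black bars at the group means and 1.5 log2 units on every vertical axis. The lines of Ddit3 run nearly level, with replicate 3 at 10.15 with CMPF and 10.16 with vehicle and replicates 1 and 2 at 9.22 or lower.

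Atf4 encodes the transcription factor at the head of the response. It read 12.08, 11.75 and 12.06 on CMPF arrays 1, 2 and 3 and 12.07, 11.77 and 12.08 on vehicle arrays 1, 2 and 3. The groups overlapped almost completely, and in both of them array 2 was the low one. The difference was -0.0051 (SE 0.13), and the pairs differed by 0.01, -0.02 and -0.01. A second Atf4 probe set, of a class that may also bind other transcripts, read 10.24, 9.97 and 10.75 with CMPF and 10.54, 10.72 and 10.63 with vehicle. That difference was -0.31 (SE 0.19), with pairs at -0.30, -0.76 and 0.12. The third and dimmest Atf4 probe set differed by 0.04 (SE 0.18). The 3 probe sets of Atf4 thus did not agree in sign, and none passed.

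Eif2ak3 encodes PERK, the ER membrane kinase that phosphorylates eIF2. It read 9.56, 10.26 and 9.75 with CMPF and 9.71, 10.17 and 9.70 with vehicle. Array 2 was the high one in both groups, the reverse of Atf4. The difference was 0.0012 (SE 0.21), with a 95% interval from -0.48 to 0.49. The other Eif2ak3 probe sets, both dimmer, differed by 0.14 (SE 0.19) and 0.15 (SE 0.31), and both were highest on the arrays numbered 2.

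Ppp1r15a encodes GADD34, the phosphatase subunit that reverses eIF2 phosphorylation. It read 8.43, 8.56 and 8.51 with CMPF and 8.63, 8.55 and 8.33 with vehicle. The values lay between 8.33 and 8.63 on the 6 arrays, with no array standing out. The pairs differed by -0.20, 0.0066 and 0.18, and the mean difference was -0.0036 (SE 0.10).

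Ddit3 encodes CHOP, the factor that links prolonged stress to cell death. It read 9.22, 9.18 and 10.15 with CMPF and 9.18, 8.96 and 10.16 with vehicle. Array 3 of each group lay about 1 log2 unit above the others, so the groups overlapped fully. The difference was 0.08 (SE 0.37), with a 95% interval from -0.78 to 0.95, the widest of the 10. With the replicate block it ran from -0.12 to 0.29, because the pairs differed by only 0.04, 0.22 and -0.0094. A second, dim Ddit3 probe set differed by -0.22 (SE 0.22) and did not repeat the high values of array 3, reading 4.34, 3.83 and 3.99 with CMPF and 4.47, 3.81 and 4.53 with vehicle.

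Atf3 encodes a stress-induced factor that acts beside ATF4 and CHOP. It read 7.90, 8.27 and 8.14 with CMPF and 7.90, 8.25 and 7.93 with vehicle. Pair 3 differed by 0.21 and the other pairs by 0.0064 and 0.01, so the positive mean of 0.08 (SE 0.14) came from 1 pair. Without CMPF array 2 the difference was -0.0030, and without pair 2 it was 0.11.

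Trib3, a pseudokinase induced by CHOP and ATF4, read 9.85, 9.48 and 9.94 with CMPF and 9.66, 9.37 and 9.92 with vehicle. It was higher with CMPF in all 3 pairs, by 0.19, 0.11 and 0.02, as was Atf3. This was so for 2 of the 10 and for 11.8% of all genes, while 0 of the 10 and 11.1% of all genes were lower in all 3 pairs. The Trib3 difference was 0.11, with an SE of 0.17 without the block and 0.08 with it. The main Trib3 probe set is of the class that may also bind other transcripts. The second Trib3 probe set differed by 0.13 (SE 0.15) and was also higher in all 3 pairs. Trib3 therefore had the same sign in both probe sets, and it did not pass in either.

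Asns, asparagine synthetase, is a classic ATF4 target of the amino acid response. It read 12.15, 11.98 and 12.02 with CMPF and 12.07, 11.91 and 12.06 with vehicle. The difference was 0.04 (SE 0.09), the smallest standard error of the 10, with a 95% interval from -0.18 to 0.26. The other probe set differed by -0.09 (SE 0.11), so the sign was not settled.

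Chac1 encodes an enzyme that degrades glutathione. It read 10.93, 9.85 and 10.20 with CMPF and 10.66, 9.85 and 10.26 with vehicle. Array 1 was the highest and array 2 the lowest in both groups. Pair 1 differed by 0.27, and the others by 0.0051 and -0.07. The mean difference was 0.07 (SE 0.30). It was -0.23 without CMPF array 1, which leaves vehicle array 1 unmatched, and -0.03 without pair 1.

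Sesn2 encodes sestrin 2, which restrains the growth kinase mTORC1 when amino acids are short. It read 8.10, 7.62 and 7.68 with CMPF and 7.93, 7.26 and 7.85 with vehicle. The pairs differed by 0.17, 0.36 and -0.17, and the mean of 0.12 (SE 0.21) was the largest of the 10. The second Sesn2 probe set differed by -0.0050 (SE 0.14), which does not repeat it.

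Fgf21 encodes a secreted metabolic hormone that ATF4 and PPARalpha can both induce. It read 5.51, 6.14 and 5.77 with CMPF and 5.59, 5.96 and 5.62 with vehicle. It is the only one of the 10 with a mean below the median gene (6.42), and a dim probe set cannot be told from an undetected one here, since the values carry no detection call. The difference was 0.08 (SE 0.18), with pairs at -0.08, 0.18 and 0.15. Over all probe sets of the 10 genes, 12 of 18 differences were positive.

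**Figure D2:**
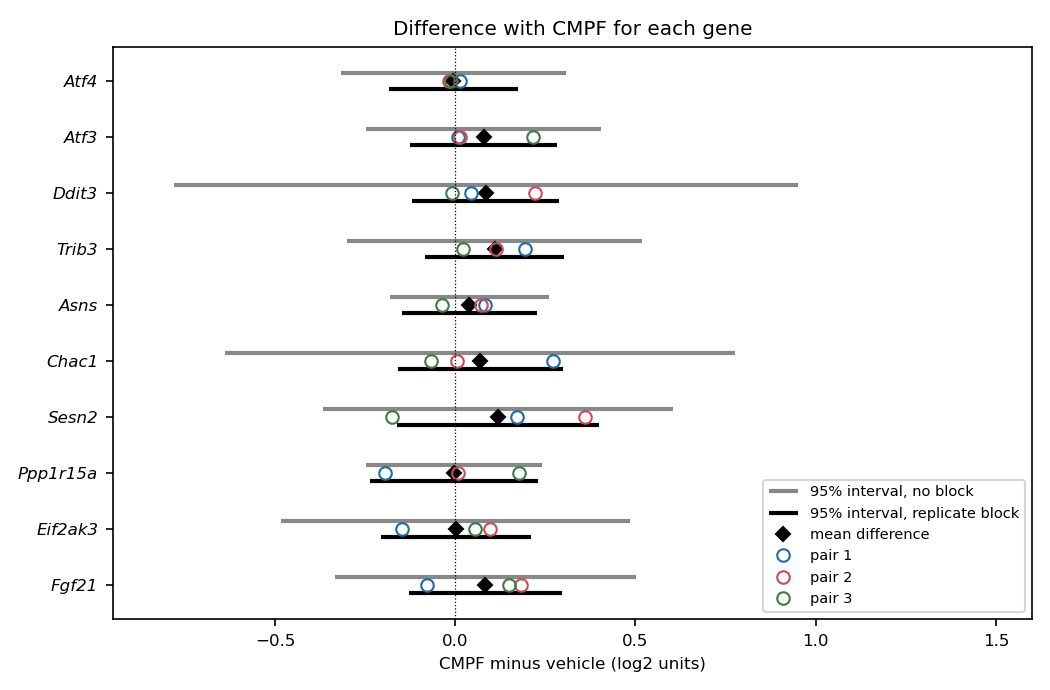
CMPF minus vehicle in log2 units for each gene, with the mean as a diamond, the 3 pairs as open circles, and 95% intervals without (grey) and with (black) the replicate block. Every interval drawn spans 0, and the black one of Ddit3 is much shorter than its grey one.

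The same genes did differ between the numbered pairs. The mean of a pair's 2 arrays ranged over more log2 units across the 3 numbers than the CMPF difference for all 10 genes, which 87.5% of all genes did too. A range of 3 means of 2 arrays and a difference of 2 means of 3 arrays are not like measures. Limma's F test of the replicate number, in the fit that also holds treatment, passed for 2 of the 10, Ddit3 (adjusted p = 0.0144) and Chac1 (adjusted p = 0.0308). It passed for 2.64% of all genes. At an unadjusted p under 0.05 the counts were 8 of 10 and 21.8% of all genes. The 2 that missed were Asns and Ppp1r15a. What a number stands for is not given in the sources used here.

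Ddit3 averaged 9.20, 9.07 and 10.16 log2 units over the arrays of pairs 1, 2 and 3, a range of 1.09 or 2.12-fold. Its call rested on pair 3: without that pair the adjusted p was 0.518, and without pair 2 it was 0.113. Chac1 averaged 10.79, 9.85 and 10.23, a range of 0.94 or 1.92-fold, and was lost without pair 1 (adjusted p = 0.147) or pair 2 (adjusted p = 0.220). Both calls were also lost without CMPF array 2 (adjusted p = 0.0772 for Ddit3 and 0.179 for Chac1) or vehicle array 2 (0.101 and 0.151), and Chac1 without CMPF array 1 (0.114). Without either array numbered 2, or without both, the test called 0 of all genes, where 481 passed on 6 arrays. With 4 or 5 arrays the test has fewer degrees of freedom. Also with 4 arrays, 423 genes passed without pair 1 and 821 without pair 3. Without pair 3 the passing genes were 821 of 18193 and held 3 members. These were Chac1 (limma adjusted p = 0.00869), Sesn2 (0.0391) and Eif2ak3 (0.0430), without Ddit3.

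The direction was not shared among the members. For 9 of the 10, all but Ppp1r15a, both arrays of 1 number lay outside the range of the other 4, which held for 57.1% of all genes. Both arrays of pair 2 lay below the other 4 for Atf4, Trib3, Asns, Chac1 and Sesn2, 5 of 10 against 14.3% of all genes. They lay above the other 4 for Atf3, Eif2ak3 and Fgf21, 3 of 10 against 16.1%. Pair 1 lay above the others for Asns, Chac1 and Sesn2 (11.6% of all genes) and below them for Atf3 and Fgf21 (10.8%). Pair 3 lay above the others for Ddit3 and Trib3 (10.7%), and below them for 0 members (11.1%). In their main probe sets Ddit3 and its known target Trib3 both had their highest mean in pair 3. That of Trib3 was 9.93, and it did not pass (limma adjusted p = 0.0903). The second, dim Ddit3 probe set averaged 4.41, 3.82 and 4.26 over pairs 1, 2 and 3. Of the 5 genes with the C/EBP-ATF letters shown above, Chac1, Asns and Trib3 were lowest in pair 2, and Atf3 and Fgf21 were highest there.

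**Figure D3:**
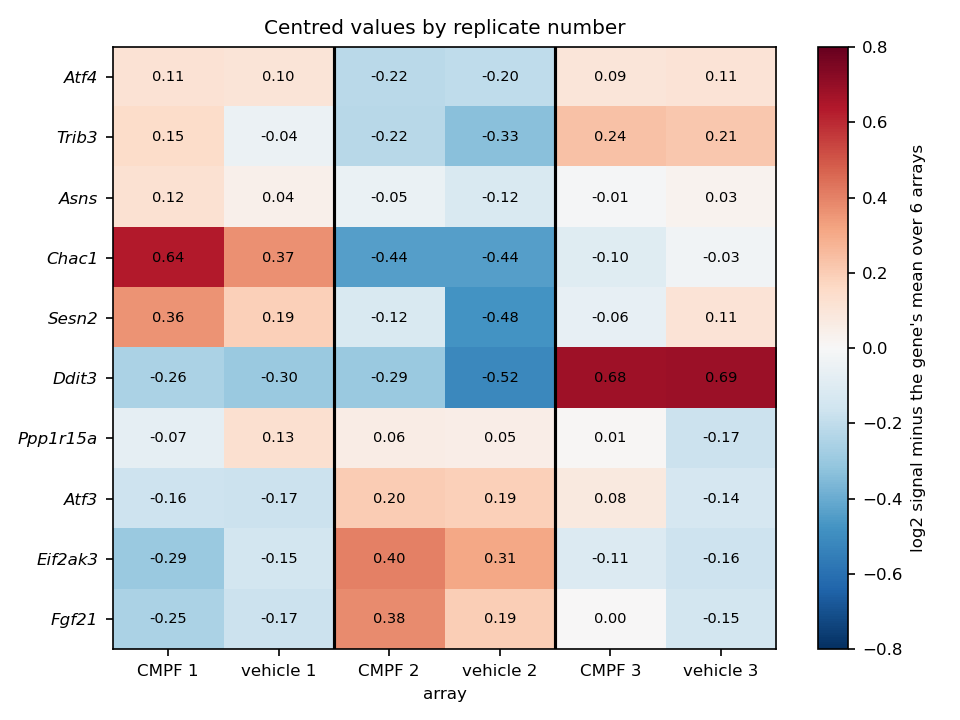
Log2 signal minus the mean of the gene over 6 arrays, for the 10 genes in rows and the CMPF and vehicle arrays of replicates 1, 2 and 3 in columns. The colours change between replicate numbers more than within them, as in the 0.68 and 0.69 of Ddit3 on the arrays of replicate 3.

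Markers of other pancreatic cells differed between the same pairs. Islet hormone genes were near the top of the array's scale, as the labelled tissue implies, with Ins2 at 14.69 in both groups. Acinar cells make the digestive enzymes, and the mean log2 level over 12 of their markers was 11.51, 12.20 and 11.13 on CMPF arrays and 11.23, 12.12 and 10.27 on vehicle arrays, so pair 2 was highest. For 11 of the 12 acinar markers both arrays of pair 2 lay above the other 4. Stellate and fibroblast markers averaged 8.68, 8.72 and 10.04 with CMPF and 9.14, 9.38 and 9.73 with vehicle, with pair 3 above the others for 8 of 10. Beta cell markers averaged 11.87, 11.33 and 11.25 with CMPF and 11.77, 11.38 and 11.45 with vehicle, highest in pair 1, where 7 of 8 markers lay above the other 4 arrays. The 18S rRNA control probe sets were lowest on both arrays numbered 2. Marker lists also differed in level between CMPF and vehicle. All 12 acinar markers had a positive difference (50.7% of all genes), with a median of 0.43, and 9 of them were higher in all 3 pairs (11.8% of all genes). With the block 8 of the 12 had an unadjusted limma p under 0.05 (3.8% of all genes), and 0 passed after adjustment. The acinar median was 0.27, 0.07 and 0.94 in pairs 1, 2 and 3, highest in pair 3. All 10 stellate and fibroblast markers had a negative difference, with a median of -0.26, but their median was -0.42, -0.55 and 0.33 in the 3 pairs and 0 were lower in all of them. The 3′ minus 5′ Gapdh control, a sign of RNA quality, was 0.0171, 0.0166 and -0.0162 on CMPF arrays and -0.0267, -0.0894 and -0.0452 on vehicle arrays, with no overlap. The same control of Actb did overlap, at 0.84, 0.74 and 0.76 with CMPF and 0.83, 0.70 and 0.81 with vehicle. In bulk RNA, fewer cells of a type and less RNA per cell cannot be told apart. The part of these markers and controls in the values of the 10 genes, between pairs or with CMPF, was not tested.

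**Figure D4:**
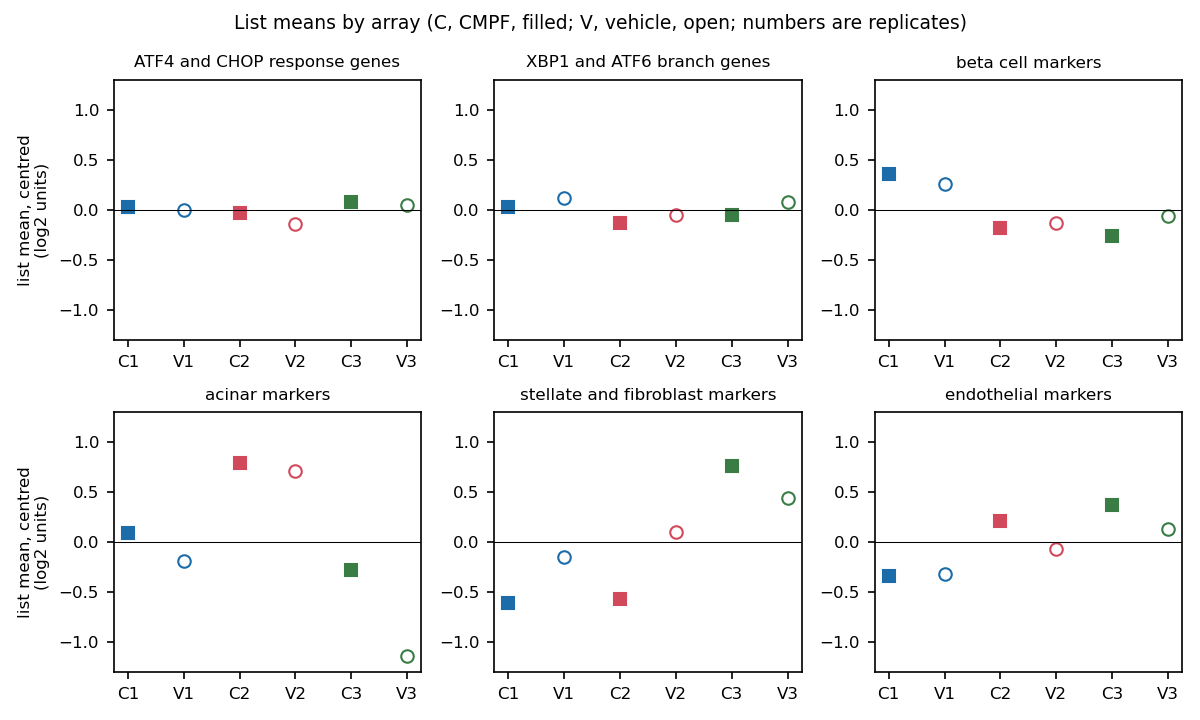
Mean log2 level of 6 gene lists on each array, centred on the mean of the 6 arrays, with CMPF arrays filled and vehicle arrays open and colours for replicate numbers. Acinar markers are highest on both arrays of replicate 2, stellate and fibroblast markers on both arrays of replicate 3, and beta cell markers on both arrays of replicate 1.

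The genes with the most similar course over the 6 arrays were found by the root mean square difference of mean-centred log2 values, among genes brighter than the median gene. For Ddit3 these were Mfap5, a microfibril protein (0.15 log2 units), Igfbp5, which binds insulin-like growth factors (0.16), and Ogt, which adds O-GlcNAc to proteins (0.17). For Chac1 they were Mlxipl, the glucose-sensing factor ChREBP (0.11), Cdhr1, a cadherin-related protein (0.13), and Ddc, DOPA decarboxylase (0.14). For Trib3 they were Usp18, Ergic1 and Fem1b, at 0.05 each. For Atf3 they were Gatm, Gin1 and Nudt21, at 0.02 to 0.03, and for Asns 1110051M20Rik, Hexa and Eid2, at 0.02 each. With 6 arrays in 3 pairs, many genes take a like course. Among the 10 members, the nearest were Eif2ak3 and Fgf21, at 0.07. By this measure Trib3 was nearer to Atf4 (0.11) than to Ddit3 (0.34). The distances are not scaled for range, so they read the size of the changes as well as their shape. Ddit3 ranged over 1.20 log2 units on the 6 arrays, Trib3 over 0.57 and Asns over 0.25, so distances of different members are not like measures.

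The wider pathway was described with 6 lists, of which 87 of 90 genes were measured. No gene of these lists passed for CMPF against vehicle, with or without the replicate block, and none of them had an unadjusted limma p under 0.05 without it. With the block the unadjusted limma p was under 0.05 for 3 of the 87 and for 3.8% of all genes. The median of a list ran from -0.09 to 0.06, beside 0.0018 for all genes.

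Of 14 measured eIF2 kinases, phosphatase subunits and exchange factor subunits, 7 had a positive and 7 a negative difference, with a median of -0.02. Eif2ak4, the amino acid sensor GCN2, read 6.43, 6.44 and 6.53 with CMPF and 6.70, 6.73 and 6.57 with vehicle. All 3 CMPF arrays lay below the 3 vehicle arrays. The groups did not overlap for this gene alone of the 14, and for 4.52% of all genes. The Eif2ak4 difference was -0.20 (SE 0.09, limma adjusted p = 0.99995). Eif2ak2, the kinase PKR that senses double-stranded RNA, differed by -0.24 (SE 0.14), of which pair 1 gave -0.63 and the others -0.07 and -0.03. Dnajc3, an ER co-chaperone that inhibits eIF2 kinases, differed by -0.11 (SE 0.13).

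Amino acid import had the highest median of the 6 lists, 0.06 over 10 transporters, and 3 of these were higher in all 3 pairs. The median was -0.0037 over the transporters brighter than the median gene. Slc7a11, the cystine importer, read 6.16, 6.20 and 5.75 with CMPF and 5.94, 5.88 and 5.65 with vehicle. Each CMPF array lay above the vehicle array of its number, though the groups overlapped. The difference was 0.21 (SE 0.15), with an unadjusted limma p of 0.186 without the block and 0.0403 with it (adjusted p = 0.979). Slc7a11 is also induced by NRF2. Slc6a9, a glycine transporter, differed by 0.27 (SE 0.18), mostly in pair 1 (0.55), and Slc7a1, which carries cationic amino acids, by 0.14 (SE 0.11).

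The 13 genes of tRNA charging and export stayed within -0.07 and 0.07, with a median of 0.0036. Tars, for threonine, differed by -0.07 (SE 0.08), Xpot, a tRNA exporter, by 0.07 (SE 0.09), and Sars, for serine, by 0.05 (SE 0.08). The 12 measured enzymes of serine, one-carbon, proline and cysteine synthesis and related steps had a median of -0.03, with 0 higher and 2 lower in all 3 pairs. Pck2, the mitochondrial PEP carboxykinase, differed by 0.13 (SE 0.11), Got1, an aspartate aminotransferase, by 0.10 (SE 0.09), and Gpt2, an alanine aminotransferase, by -0.09 (SE 0.09). Each of these values is about the size of its standard error without the block. With the block the standard errors of Pck2, Got1 and Gpt2 were 0.085, 0.084 and 0.074.

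The 20 other ATF4 and CHOP targets and partners split evenly, 10 positive and 10 negative. Tnfrsf10b, the death receptor DR5 that CHOP induces, read 4.65, 4.51 and 4.52 with CMPF and 4.46, 4.44 and 4.32 with vehicle. The groups did not overlap, which held for this gene alone of the 20 and for 4.52% of all genes. The probe set was below the 25th percentile of gene means (4.53). Its difference was 0.15 (SE 0.09), and it did not pass. Gadd45a, a growth arrest gene, differed by -0.15 (SE 0.11), and Stc2, stanniocalcin 2, by 0.17 (SE 0.13). For the replicate number 3 of the 20 passed, beside 2.64% of all genes: Cebpd, Ndrg1 and Trp53inp1, named after their values were seen. Cebpd, a C/EBP factor, averaged 10.27, 10.69 and 11.07 over the arrays of pairs 1, 2 and 3 (limma adjusted p = 0.0368). Ndrg1, a stress-induced gene, averaged 10.89, 11.12 and 11.66 (limma adjusted p = 0.0468), highest in pair 3 like Ddit3. Trp53inp1, a p53 target, averaged 10.40, 11.21 and 9.94 (limma adjusted p = 0.0112), with its peak in pair 2. Its CMPF difference was 0.23, with an SE of 0.40 without the block and 0.08 with it. The pairs differed by 0.20, 0.17 and 0.32, and it did not pass with or without the block.

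Genes of the other branches of the unfolded protein response, XBP1 and ATF6, lay on the opposite side of 0 from most of the 10 members. Of 18 genes, 17 had a negative difference (49.3% of all genes) and 11 were lower in all 3 pairs (11.1% of all genes), with a median of -0.09, while 0 passed. The groups did not overlap for 2 of the 18, Pdia4 and Syvn1, and for 4.52% of all genes. Some single arrays moved the list median by over 1.5 times. It was -0.14 without CMPF array 1 and -0.04 without CMPF array 2. Without vehicle array 1 it was -0.06, and without vehicle array 2 it was -0.17. Leaving out array 3 of CMPF or of vehicle gave -0.10 or -0.07. With whole pairs 1, 2 and 3 left out the list median was -0.10, -0.10 and -0.08. Hsp90b1, an ER chaperone, differed by -0.24 (SE 0.13), Derl3, of ER-associated degradation, by -0.17 (SE 0.10), and Syvn1, an ER ubiquitin ligase, by -0.14 (SE 0.09). The difference between these genes and the 10 members was not tested.

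**Figure D5:**
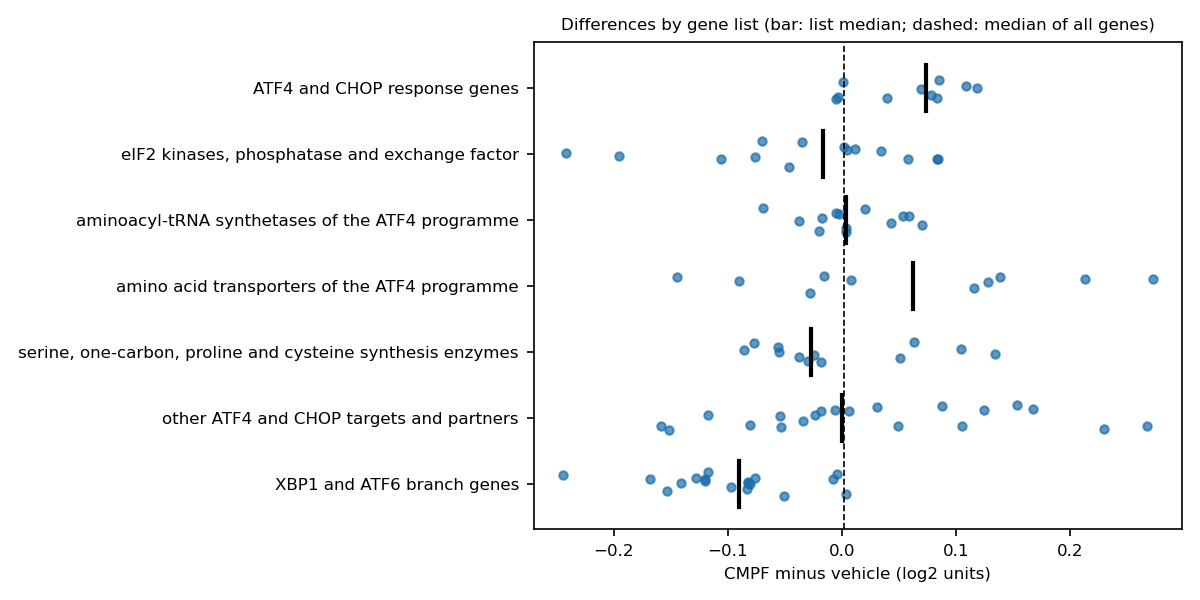
CMPF minus vehicle in log2 units for each measured gene (points) of the 10 members and of 6 pathway lists, with list medians as bars and the median of all genes as a dashed line. The points of the 10 members lie between -0.0051 and 0.12, and those of the XBP1 and ATF6 branches mostly below 0.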

How the data were processed

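The deposited values are log2 signals. Per the submitters' processing notes, the authors used RMA and Affymetrix Expression Console 1.1, and the sources used here state no settings. RMA forces the arrays to 1 distribution and compresses differences of dim genes. Array medians lay between 5.08 and 5.15, the lowest correlation of 2 arrays across genes was 0.989 (genes are not independent replicates), and no 2 arrays were identical. Precision is limited by the number of arrays. The log2 difference of the 3′ and 5′ Actb controls was 0.70 to 0.84 over the 6 arrays.

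Of 45101 probe sets, 64 controls were left out. Of the rest, 34945 name 1 gene, 932 several and 9160 none. By Entrez ID 34741 matched RefSeq genes (GRCm38.p6). The brightest probe set stood for each of 18193 genes.

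Limma 3.58.1 (lmFit, eBayes; R 4.3.3) compared CMPF with vehicle in a two-sided test. P-values were adjusted by Benjamini-Hochberg over all genes and called under 0.05. The fit was tested on simulated data. Deviations from group means were correlated at 0.488 to 0.638 between same-numbered arrays, against -0.56 to 0.09 for others, so the numbers were taken to pair the arrays, from the data. The deviations within a group sum to 0, so positive values for same-numbered arrays push the others down. A limma F test then compared the numbers, on the same values that gave the pairing.

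The members and lists were chosen with earlier results of these data known. The text names the 10 members, the 3 genes of each pathway list with the smallest p, and the 3 genes most like each of Ddit3, Trib3, Atf3, Asns and Chac1, among genes with at least the member's range divided by 2. Other normalizations, probe set means, filters, eBayes settings, array weights and left-out arrays were tried.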

Additional observations from a re-analysis of the deposited data

How the results depend on the processing

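For CMPF against vehicle 0 genes passed, over all genes, the 10 members and the pathway lists, under each setting tried. The smallest limma adjusted p of any member under any setting was 0.979, with the replicate block, which changed no call. Of 169 member values under other settings 135 kept their sign. Signs changed with median centring for Eif2ak3 (-0.0025), with a second quantile normalization for Atf4 (0.0211) and Ppp1r15a (0.0144), with probe set means for Ddit3 (-0.0665) and Asns (-0.0245), and with array weights for Chac1 (-0.0878) and Sesn2 (-0.0118). The other 27 changes came from leaving out arrays, where the lowest and highest differences were -0.107 and 0.102 for Atf4, -0.00299 and 0.192 for Atf3, -0.232 and 0.449 for Ddit3, -0.0305 and 0.247 for Trib3, -0.0129 and 0.0769 for Asns, -0.232 and 0.305 for Chac1, -0.0913 and 0.265 for Sesn2, -0.0943 and 0.0922 for Ppp1r15a, -0.201 and 0.155 for Eif2ak3, and -0.0838 and 0.231 for Fgf21. The replicate number passed for 481 genes and 2 members. With only genes brighter than the median, which leaves fewer genes to adjust over, 1149 genes and 4 members passed, adding Trib3 (adjusted p = 0.0295) and Eif2ak3 (adjusted p = 0.0238). With probe set means 490 genes and 1 member passed. The member was Chac1, and Ddit3 had an adjusted p of 0.0513. The cause was not tested. With arrays or pairs left out the counts ran from 0 to 936 genes and from 0 to 3 members. Leaving out arrays in the test of the number was chosen after seeing the data. Fgf21 has no value under the filter at the median.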
